A study of Mus musculus with 6 samples.

Results

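The Wnt genes described here are the Wnt ligands, their Frizzled (Fzd) receptors and LRP co-receptors, the secreted antagonists of the Sfrp, Dkk and Wif families, and the pathway's nuclear or feedback genes Axin2, Lef1 and Tcf7. They were chosen by symbol among probe sets annotated to exactly 1 gene, with the brightest probe set by mean over the 6 arrays taken as the value of the gene. Of 44 names sought, 43 had such a probe set, among 18193 genes in all, and Tcf7 was not listed under a single gene. The 43 genes have 83 probe sets, and 26 of the genes have more than 1.

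RNA of cultured mouse lymphatic endothelial cells (LEC) was measured on 6 Affymetrix arrays, 3 of tumour LEC and 3 of normal dermal LEC. Tumour LEC came from C57BL/6 mice bearing fibrosarcomas of T241 cells, a mouse fibrosarcoma line that here carried VEGF-C, a lymphatic growth factor, and green fluorescent protein. The normal LEC were taken from the dermis of the tail of 8-week-old female C57BL/6 mice; for the mice with tumours, age and sex are not stated in the sources used here. Cells of both groups were grown on gelatin in endothelial medium. Tumours were digested with enzymes and cultured, and most tumour cells were lifted off before the LEC were detached. Immunomagnetic selection for LYVE-1, which binds hyaluronan on lymphatic endothelium, is described for both groups, although for tumours the description runs on from the preparation of skin. Tumour arrays are titled as tumour cells, whereas their source is given as LEC from the tumours. Nothing in the labels ties a replicate to an animal or a culture of its own, and the p-values below cover the spread between arrays, which may be technical, and with 3 arrays a group every value has limited precision.

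Wnt proteins are lipid-modified secreted ligands that bind the cysteine-rich domain of Frizzled receptors. With LRP5 or LRP6 as co-receptor they stabilise beta-catenin, which then activates genes with TCF and LEF factors, and with other partners such as ROR receptors they act without beta-catenin on cell polarity and movement. Sfrp proteins, Frzb and Wif1 bind the ligands, whereas Dkk proteins such as Dkk1 and Dkk2 bind the LRP co-receptors. In endothelium, FZD4 is best known as the receptor through which Norrin and Wnt ligands shape the vessels of the retina and brain.

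Promoter windows are shown for the genes with the widest separation between tumour and normal arrays, so that the letters near their start sites can be read beside the expression values. Those genes are Wnt5a, Fzd2, Fzd7, Dkk2 and Fzd4, whose groups did not overlap and differed at least 2-fold. For 3 of the 5, RefSeq (GRCm38.p6) windows of 250 bases before to 50 after the annotated start were used. These were chr3:132085042-132085341 for Dkk2, chr1:59481897-59482196 for Fzd7 and chr7:89404116-89404415 for Fzd4, all on the plus strand. Capitals mark the GC box GGGCGG, the TATA box TATAAA and the CCAAT box, each searched on both strands.
Dkk2: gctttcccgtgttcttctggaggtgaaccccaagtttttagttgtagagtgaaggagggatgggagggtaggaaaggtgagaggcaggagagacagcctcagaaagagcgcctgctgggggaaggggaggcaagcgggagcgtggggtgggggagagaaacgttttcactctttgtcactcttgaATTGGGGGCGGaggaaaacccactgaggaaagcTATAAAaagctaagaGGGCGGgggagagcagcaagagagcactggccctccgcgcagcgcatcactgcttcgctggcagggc
Fzd7: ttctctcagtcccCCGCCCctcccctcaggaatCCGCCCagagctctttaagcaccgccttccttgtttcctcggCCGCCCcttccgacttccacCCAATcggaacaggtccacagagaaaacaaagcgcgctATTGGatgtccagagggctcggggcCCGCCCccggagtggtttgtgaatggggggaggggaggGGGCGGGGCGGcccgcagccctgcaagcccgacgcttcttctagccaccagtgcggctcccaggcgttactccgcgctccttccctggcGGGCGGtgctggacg
Fzd4: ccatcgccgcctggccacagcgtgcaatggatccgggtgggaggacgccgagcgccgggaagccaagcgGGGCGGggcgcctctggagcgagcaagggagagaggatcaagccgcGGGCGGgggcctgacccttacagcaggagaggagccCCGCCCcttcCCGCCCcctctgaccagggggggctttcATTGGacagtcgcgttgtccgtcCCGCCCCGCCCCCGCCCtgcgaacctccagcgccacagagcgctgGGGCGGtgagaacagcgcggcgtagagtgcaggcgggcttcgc
The GC content was 57.7% for Dkk2, 66.7% for Fzd7 and 72.7% for Fzd4, against a median of 52.7% over 32851 windows of all genes. Counting overlapping matches, the GC box occurred 2 times for Dkk2, 7 times for Fzd7 and 8 times for Fzd4, and 35.7% of all windows hold at least 1. A TATA box occurred in the Dkk2 window alone among these 3 (13.6% of all windows). The CCAAT box occurred once in the Dkk2 and Fzd4 windows and 2 times in that of Fzd7 (37.4%). The core letters CTTTGA bound by TCF and LEF factors (16% of all windows) and the E-box CACGTG (7.15%) had 0 matches in the 3 windows. These matches describe letters and are not sites.

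The arrays were checked for cell identity and quality first. As a measure of RNA quality, Gapdh signal at the start of the transcript lay below that at its end. This drop was 2.25 log2 units in normal replicate 1 and 1.82 to 2.05 on the other arrays. Lyve1, whose protein served to select the cells, and Prox1, which defines lymphatic endothelium, read 13.65 to 14.91 and 7.73 to 8.92 log2 units over the 6 arrays. The 11 lymphatic markers included 10 above background, while Mmrn1 was at background. Groups did not overlap for 3 of the 10 (30%), against 27.1% of all genes above background. Tbx1 (1.36) and Itga9 (0.19) were higher in tumour LEC and Foxc2 (-1.74) was lower. Blood endothelial markers, 10 in all, had 7 above background and 2 (28.6%) without overlap, Cd34 higher (1.25) and Nrp1 lower (-3.59). Markers of other cells were partly present. Of 10 keratinocyte markers 7 were at background on all arrays, Krt14 among them, while Krt10 read 6.76 to 7.17. Of 9 markers of mural cells, Rgs5 was at background, Acta2 and Tagln read 10.66 to 13.96 and 9.25 to 12.92 with overlapping groups, and Cspg4 read 5.38 to 8.11 in normal LEC and was at background in tumour LEC. Of 12 leukocyte markers, 8 were above background and all 8 overlapped between groups, such as Cd68 at 4.82 to 10.88 and Lyz2 at 5.48 to 10.06, while Ptprc was above background in tumour replicate 1 only, at 5.92. An array's background limit was taken as the highest of its 27 controls for bacterial RNA that was not added, and lay between 3.40 and 3.71. Fibroblast markers were in part above background. Those at background numbered 0, 2 and 3 of 15 in normal replicates 1, 2 and 3. In the tumour replicates they numbered 3, 8 and 6. Pdgfra read 11.75, 9.48 and 9.13 in normal replicates 1, 2 and 3 and 5.74, 4.87 and 4.66 in the tumour replicates. Of 15 fibroblast markers, 12 of the 13 above background were lower in tumour LEC without overlap and Thy1 was higher. Over all genes above background the shares were 14% lower and 13.1% higher. Dpt, Pdgfrb, Col1a2 and Col3a1 were above background on at least 2 of 3 arrays in normal LEC only. The summed signal of the 15 markers was 15.17 to 16.41 on the log2 scale in normal LEC and 13.31 to 14.22 in tumour LEC. Thy1 alone read 13.54, 13.67 and 12.97 in tumour replicates 1, 2 and 3, so it made up most of the tumour sum. In bulk RNA, fewer cells of a type and less RNA per cell cannot be told apart.

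Wnt5a and Dkk2 were the Wnt genes that stood furthest apart between normal and tumour LEC. Wnt5a, a ligand that mostly acts without beta-catenin, read 8.31 ± 0.71 in normal LEC and 3.95 ± 1.23 in tumour LEC (log2, SD, n = 3 each). Dkk2, a secreted LRP antagonist, read 7.38 ± 1.13 in normal LEC and was at background in tumour LEC. The Frizzled genes split, with Fzd2 and Fzd7 lower in tumour LEC and Fzd4 and Fzd5 higher, while Fzd1, Fzd6, Fzd8 and Lrp6 overlapped between the groups. No Wnt gene passed the threshold of an adjusted p of 0.05 over all 12954 genes tested (limma, Benjamini-Hochberg), so each of these is a measured difference that missed the test.

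Of the 43 genes, 26 were bright enough to be tested and 17 were not. None of the 26 passed, against 0.216% of all genes tested, and 5 had an unadjusted p under 0.05, against 15.5% of all genes. In all, 15 of the 43 were above background on at least 2 of the 3 arrays of a group and 28 were not. Among the 15, the 3 tumour arrays lay below the 3 normal arrays for 4 genes, Wnt5a, Dkk2, Fzd2 and Fzd7, where 14% of the 10592 genes above background did so. They lay above for 3, Fzd4, Fzd5 and Wnt3, where 13.1% of genes did so. With a difference of at least 2-fold as a further condition, 4 genes were lower and 1, Fzd4, was higher, against 5.56% and 3.38% of genes. Dkk2 counts among the 15 through the normal arrays alone. The median difference over the 26 tested genes was 0.03 log2 units, the same as the median of 0.03 over all genes tested. Over the 15 above background it was -0.35, against -0.04 over all genes above background, and the 15 include Dkk2, which had to be lower.

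**Figure D1:**
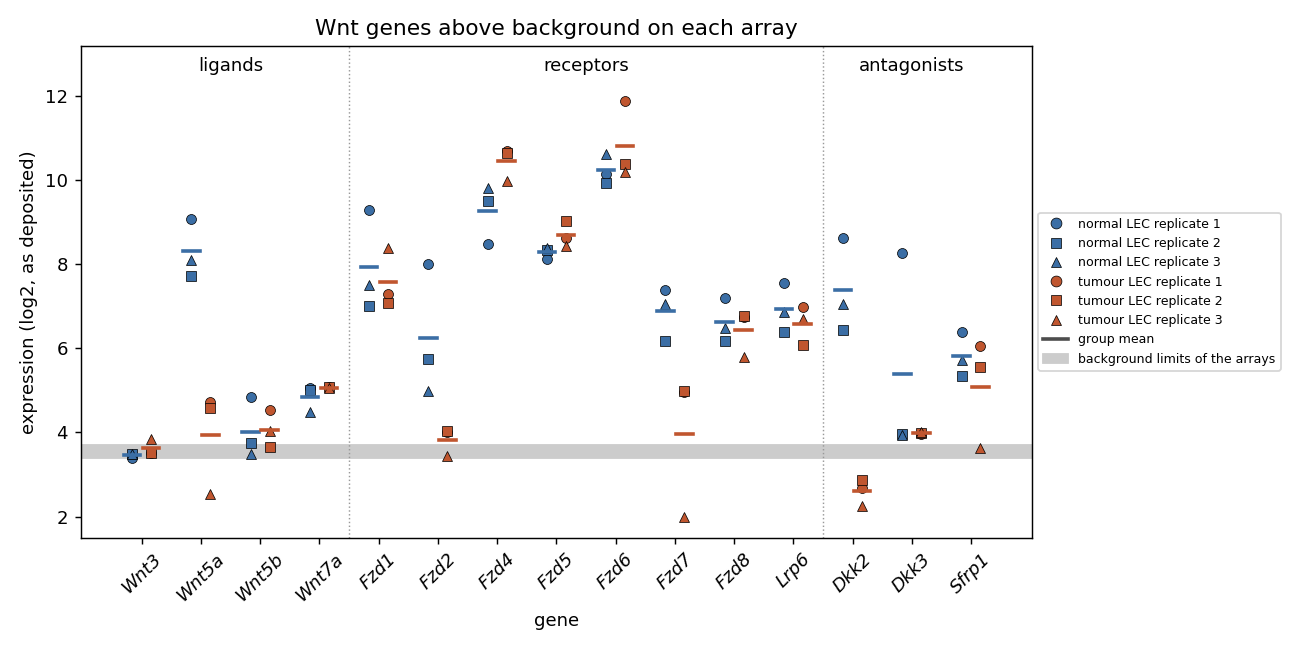
Expression (log2, as deposited) of the 15 Wnt genes above background on each of the 6 arrays, by role; symbols are replicates, horizontal bars group means, and the grey band the range of the arrays' background limits (3.40 to 3.71). Wnt5a, Fzd2, Fzd7 and Dkk2 read lower on every tumour array than on any normal array, and Dkk3 is far above the others in normal replicate 1 alone.

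Among the 19 ligands, 14 were at background on all 6 arrays and 4 met the criterion of 2 arrays. Wnt5a read 9.09, 7.72 and 8.11 in normal replicates 1, 2 and 3 and 4.73, 4.58 and 2.53 in tumour replicates 1, 2 and 3. All 3 normal arrays lay at least 2.99 log2 units above any tumour array, and tumour replicate 3 was at background. The difference was -4.36 (SE 0.70, adjusted p = 0.0863, limma), at least 15.6-fold when the value at background is raised to the limit of its array. Its adjusted p ranged from 0.0285 to 0.203 over the alternative settings. It was past the threshold with array weights (-3.81, adjusted p = 0.0285, limma) and with all values raised to a common background limit (-3.97, adjusted p = 0.045). The common limit raised tumour replicate 3 from 2.53 to 3.71. With it the SE was 0.45 rather than 0.70, and 10886 genes were tested. The array weights were estimated from the same expression values. They were 0.446, 3.72 and 0.307 for tumour replicates 1, 2 and 3, so that setting rests mostly on replicate 2 for tumour LEC. A second Wnt5a probe set read 7.43, 6.30 and 6.57 in normal LEC and 3.50, 3.40 and 3.11 in tumour LEC, again without overlap. The other Wnt5a probe sets were above background on 1 array in one case, normal replicate 1 at 4.38, and on 0 in the other.

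The remaining ligands gave little signal. Wnt5b, the close relative of Wnt5a, read 4.84, 3.74 and 3.49 in normal LEC and 4.54, 3.66 and 4.03 in tumour LEC, so the groups overlapped, with a difference of 0.05 (SE 0.42) whose sign changed in several settings. Wnt7a, a ligand that can signal through beta-catenin, was nearly flat on a single probe set, at 4.48 to 5.09 on all 6 arrays, and its other 2 probe sets were at background. Wnt3 lay at the edge of background, at 3.40 to 3.51 on 5 arrays and 3.84 in tumour replicate 3, where the limit is also highest (3.71). Its groups did not overlap, but by 0.01 log2 units only, and the difference of 0.16 was 0.048 without that array. Wnt6 passed the limit on 1 array, tumour replicate 2, at 3.74. The 15 ligands short of the criterion, among them Wnt2, Wnt4, Wnt9b, Wnt11 and Wnt16, read between 1.87 and 3.74.

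Signal near the floor was itself uneven between the groups. Of the 25 Wnt genes at background on all arrays, 22 had a higher mean in tumour LEC and 20 were highest in tumour replicate 3. For all 7063 genes at background on every array, these shares were 93.4% and 83.7%, against 88% and 80% of the 25. Small positive differences of dim Wnt genes, with a median of 0.05, therefore have the size of the floor's own shift, 0.06. Tumour replicate 3 had the highest median of the absent bacterial controls, 2.77, against 2.56 to 2.61 on the other 5 arrays.

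Among the 12 receptors and co-receptors, 8 were above background, the Frizzled genes Fzd1, Fzd2, Fzd4, Fzd5, Fzd6, Fzd7 and Fzd8 and the co-receptor gene Lrp6. Fzd4 read 8.48, 9.50 and 9.83 in normal replicates 1, 2 and 3 and 10.70, 10.66 and 9.99 in the tumour replicates. The lowest tumour array, replicate 3, lay 0.16 log2 units above the highest normal array. The difference was 1.18 (SE 0.41, adjusted p = 0.271, limma), or 2.27-fold, and it was positive in all 16 alternative settings, at 0.71 to 1.46. Without normal replicate 1, the lowest array, it was 0.78. Pan-endothelial markers were in part higher too: 5 of 12 were higher in tumour LEC without overlap, against 13.1% of genes above background, and 0 lower. The other 7 overlapped, with differences from -0.1 for Kdr and 0.02 for Tie1 to 1.44 for Pecam1 and 1.51 for Emcn. The median difference of the 12 markers was 1.02. Their summed signal was 13.29 to 14.47 on the log2 scale in normal LEC and 14.63 to 15.31 in tumour LEC, and their part in the Fzd4 difference was not tested. A second Fzd4 probe set differed by 0.81 with overlapping groups, since tumour replicate 3 read 7.48 there, below 7.94 in normal replicate 2.

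Fzd5 moved within a narrow range. It read 8.14, 8.35 and 8.40 in normal LEC and 8.64, 9.03 and 8.44 in tumour LEC, a difference of 0.40 (SE 0.18, adjusted p = 0.365, limma). The groups were separated by 0.04 log2 units, and without tumour replicate 2 the difference was 0.24. Fzd6, a receptor mostly studied in tissue polarity, was high in both groups, at 9.93 to 10.62 in normal LEC and 10.21 to 11.89 in tumour LEC. Its highest array was tumour replicate 1, which also had the highest leukocyte markers (a median deviation of 2.09 from the gene means), and without that array the difference of 0.59 (SE 0.49) was 0.06. Whether those cells had a part in it was not tested. A second Fzd6 probe set read 3.67, 4.40 and 4.42 in normal LEC and 5.74, 4.44 and 4.54 in tumour LEC. Its difference was 0.74 without overlap, tumour replicate 1 was again the highest array, and the remaining Fzd6 probe set was at background.

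Fzd2 and Fzd7, close relatives within the Frizzled family, were both lower in tumour LEC. Fzd7 read 7.40, 6.18 and 7.06 in normal LEC and 4.96, 4.99 and 1.98 in tumour LEC, where replicate 3 was at background. The groups were 1.19 log2 units apart, and the difference was -2.91 (SE 0.90, adjusted p = 0.238, limma), at least 5.02-fold with the value at background raised to its limit. Without tumour replicate 3 the Fzd7 difference was -1.91. The other Fzd7 probe set was at background throughout. Fzd2 read 8.01, 5.75 and 4.99 in normal LEC and 4.01, 4.03 and 3.45 in tumour LEC, a difference of -2.42 (SE 0.79, adjusted p = 0.251, limma).

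All 3 Fzd2 probe sets separated the groups, and they differed in size. The other 2 were at background on every tumour array, with differences of -4.60 and -4.62, at least 10.8-fold and 6.22-fold. They read 5.88 to 8.32 and 4.86 to 7.96 in normal LEC. The brightest by mean over all arrays thus gave the smallest difference of the 3. With probe sets of a gene averaged, the Fzd2 difference was -3.88 (adjusted p = 0.111, limma). For the brightest probe set alone, the difference of -2.42 was -1.54 without normal replicate 1.

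Fzd1, Fzd8 and the co-receptor Lrp6 overlapped between the groups. Fzd1 read 9.29, 7.00 and 7.52 in normal LEC and 7.30, 7.08 and 8.39 in tumour LEC; its difference of -0.35 (SE 0.68) became 0.33 without normal replicate 1. Fzd8 read 7.19, 6.18 and 6.49 in normal LEC and 6.74, 6.78 and 5.79 in tumour LEC, with a difference of -0.18 (SE 0.38) whose sign also depended on single arrays. Lrp6 read 7.55, 6.39 and 6.87 in normal LEC and 6.99, 6.09 and 6.70 in tumour LEC, a difference of -0.35 (SE 0.37), which was -0.041 without normal replicate 1, -0.1 without tumour replicate 2 and up to -0.62 without another array. A second Lrp6 probe set differed by -0.54 without overlap, at 4.92 to 5.44 in normal LEC and 4.66 to 4.71 in tumour LEC. Lrp5, Fzd3, Fzd9 and Fzd10 were at background on all 6 arrays.

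**Figure D2:**
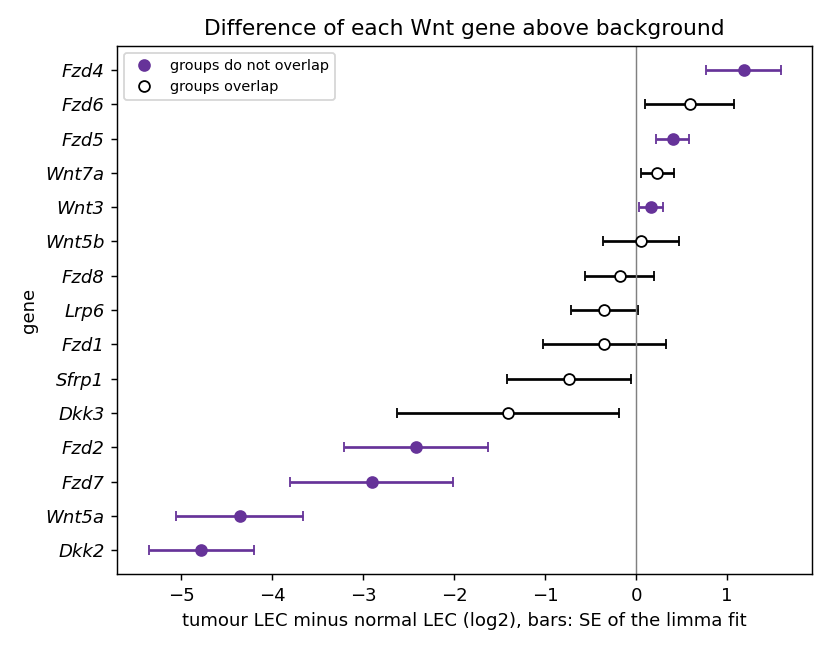
Difference between tumour and normal LEC (log2) for each of the 15 Wnt genes above background, with the SE of the limma fit as bars; filled points are genes whose groups of 3 arrays do not overlap. Dkk2 at -4.78 and Wnt5a at -4.36 lie furthest from 0, and Fzd4 at 1.18 is the highest.

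Among the 10 secreted antagonists, 3 were above background: Dkk2, Dkk3 and Sfrp1. Dkk2 read 8.64, 6.45 and 7.06 in normal replicates 1, 2 and 3 and 2.68, 2.86 and 2.26 in the tumour replicates, all of which were at background. The groups were 3.58 log2 units apart. The difference was -4.78 (SE 0.58, adjusted p = 0.058, limma), at least 14-fold against the background limits. Its adjusted p ranged from 0.0171 to 0.229 over the alternative settings, and Dkk2 has a single probe set. It was past the threshold without normal replicate 1 (-4.15, adjusted p = 0.0171, limma), with a 60th percentile filter (-4.78, adjusted p = 0.0305) and with array weights (-4.51, adjusted p = 0.0264). The last of these settings rests mostly on replicate 2 for tumour LEC.

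Dkk3, a divergent Dkk protein, was high on 1 array. It read 8.27 in normal replicate 1 and 3.95 to 4.00 on the other 5 arrays, and its second probe set read 8.05 there and 2.72 to 3.27 elsewhere. Its difference of -1.41 (SE 1.22) was 0.029 without that array. Sfrp2 and Frzb, which bind Wnt ligands, were above background on that array only, at 4.04 and 3.90, and below it on the other 5. Sfrp1 read 6.39, 5.34 and 5.72 in normal LEC and 6.05, 5.55 and 3.63 in tumour LEC, where replicate 3 was at background. Its groups overlapped, with a difference of -0.74 (SE 0.68) that was -0.016 without tumour replicate 3. Dkk1, Dkk4, Sfrp4, Sfrp5 and Wif1 were at background on all 6 arrays.

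Axin2 and Lef1, which are both parts and targets of the beta-catenin pathway, were at background in both groups. Axin2 read 2.35 to 2.85 and Lef1 2.31 to 2.43 over the 6 arrays, and both were too dim to be tested. Their further probe sets were at background too. No difference in these genes was therefore detectable on these arrays.

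Normal replicate 1 held the highest values of many of these genes. Of the 15 genes above background, 11 (73.3%) were highest there among the normal arrays, against 32% of the 10592 genes above background. On the tumour side 10 of the 15 (66.7%) were lowest in replicate 3, against 36.2%. Normal replicate 1 also had the highest fibroblast markers: the 13 above background deviated from their gene means by a median of 4.15, against 1.55 and 1.47 in replicates 2 and 3 and -1.84, -2.20 and -2.36 in the tumour replicates. Pan-endothelial markers were lowest there, at -1.34 against -0.39 and 0.17 in the other normal arrays and 1.03, 0.49 and 0.48 in the tumour replicates. The part of fibroblasts in the differences of Wnt5a, Fzd2, Fzd7 and Dkk2 was not tested. Without normal replicate 1, the differences were -3.97 for Wnt5a, -4.15 for Dkk2, -1.54 for Fzd2 and -2.64 for Fzd7. Leaving out an array cannot make separated groups overlap, so these 4 genes had to stay below the remaining normal arrays. The median deviations of the fibroblast markers in the 2 remaining normal arrays were still above those of every tumour array.

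**Figure D3:**
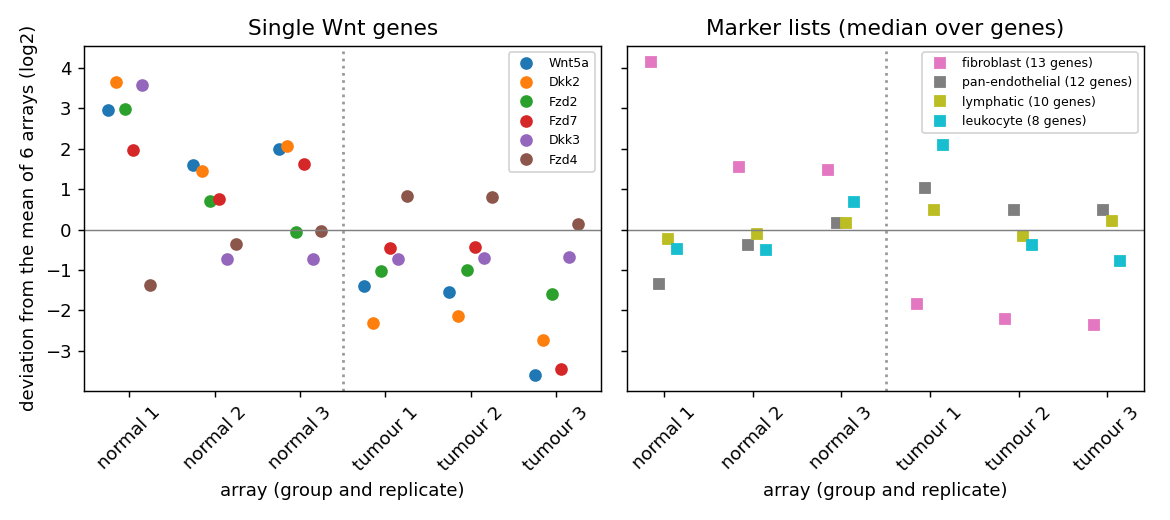
Deviation from the mean of the 6 arrays (log2) for 6 Wnt genes (left) and the median deviation of 4 marker lists (right), on each array. Dkk3 stands out in normal replicate 1, Wnt5a and Fzd7 are lowest in tumour replicate 3, and the fibroblast list is at 4.15 in normal replicate 1 and below -1.8 on every tumour array.

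The rest of the pathway was examined with 70 further genes of Wnt secretion, receptor control, signalling and response, and 69 of them had a probe set of their own. Of these 69, 52 were tested and none passed in either direction (limma, adjusted over all genes tested), against 0.216% of all genes tested. An unadjusted p under 0.05 was found for 13 of the 52, against 15.5% of all genes tested. Of the 44 above background, 6 were higher and 11 lower in tumour LEC without overlap, where 13.1% and 14% of all genes above background did so. Ror2 among the lower and Porcn among the higher were above background only in the group where they are high. The median difference of the 44 was -0.23, against -0.04 over all genes above background.

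Genes that set the sensitivity of Frizzled receptors included the largest positive differences. Rspo3, a secreted enhancer of Wnt signalling, read 5.85, 3.63 and 4.80 in normal LEC and 8.52, 6.75 and 7.43 in tumour LEC. Its difference was 2.80 (SE 0.70, adjusted p = 0.178, limma), and every tumour array lay above every normal array. Tspan12, a tetraspanin that assists FZD4 in the response to Norrin, read 4.66, 5.64 and 6.05 in normal LEC and 6.76, 6.75 and 7.77 in tumour LEC, a difference of 1.64 (SE 0.46, adjusted p = 0.211, limma). Ndp, which encodes Norrin and is named here after its values were seen, was at background on all 6 arrays (2.49 to 2.81). Tle4, a co-repressor of TCF factors, had the next highest difference at 0.87 (SE 0.31).

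On the lower side, the response gene Apcdd1, itself a membrane inhibitor of Wnt signalling, read 10.08, 9.74 and 8.54 in normal LEC and 5.24, 5.87 and 6.71 in tumour LEC. Its difference was -3.52 (SE 0.54, adjusted p = 0.0853, limma), with the groups well separated. Ror2, a receptor for Wnt5a, read 6.83, 4.34 and 5.07 in normal LEC and was at background on all 3 tumour arrays, at 3.46 to 3.51 (-1.94, SE 0.63, adjusted p = 0.251, limma), at least 3.58-fold. Ccn4, a matricellular response gene, differed by -1.86 (SE 0.66). Ror1 and Adgra2, named like the genes of the next paragraph after their values were seen, differed by -1.79 (SE 0.28, adjusted p = 0.0853, limma) and -1.78 (SE 0.23, adjusted p = 0.0701). Ror1 is the paralogue of Ror2, and Adgra2 is an endothelial co-receptor for Wnt7 ligands. Apcdd1, Ror2, Ccn4 and Adgra2 were highest in normal replicate 1, which had the highest fibroblast markers, and Ror1 in normal replicate 2. The part of fibroblasts in these differences was not tested.

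Among the shared machinery, Ctnnb1, which encodes beta-catenin, read 14.28 to 14.48 in normal LEC and 14.54 to 14.84 in tumour LEC, a difference of 0.27 (SE 0.13). Of 13 cytoplasmic genes above background, 4 (30.8%) did not overlap between groups, near the 27.1% of all genes above background. The extremes were Axin1 at -0.95 (SE 0.25) and Apc at 0.54 (SE 0.12), both scaffolds of the complex that degrades beta-catenin. Of 5 response genes above background, Myc, Ccnd1 and Nkd1 overlapped, with differences of -0.07, -0.05 and 0.02. Wls, the carrier that brings Wnt ligands to the cell surface, read 9.61 to 10.32 in normal LEC and 9.44 to 10.47 in tumour LEC.

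**Figure D4:**
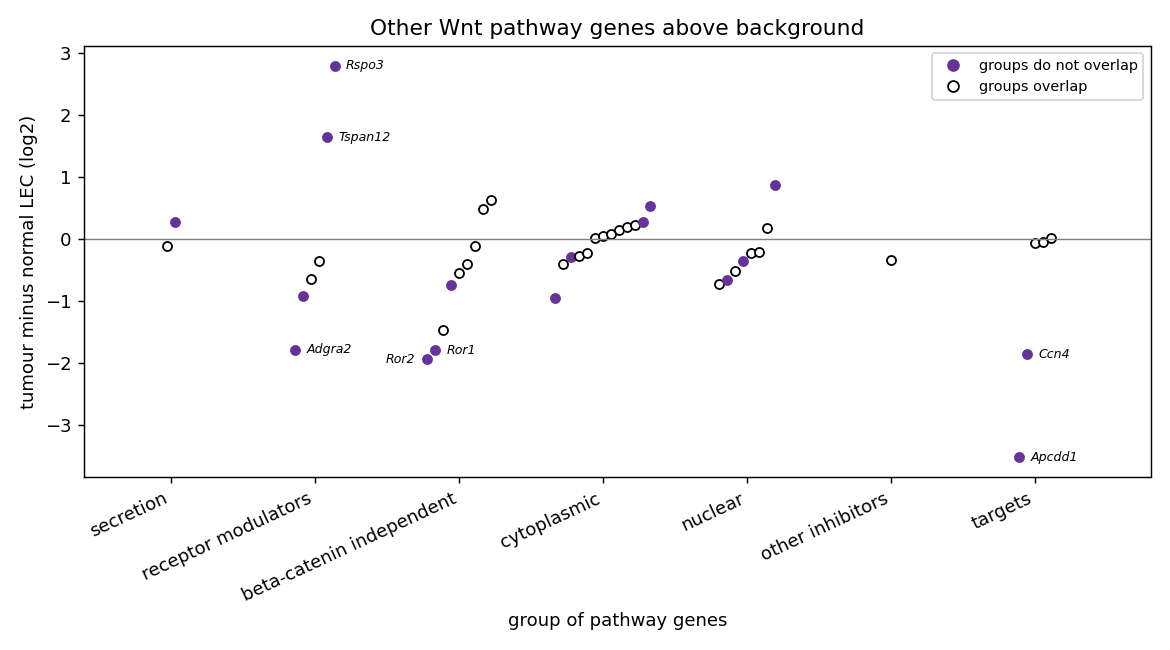
Difference between tumour and normal LEC (log2) for the 44 other Wnt pathway genes above background, by group; each point is a gene and filled points are genes whose groups do not overlap. Rspo3 (2.80) and Tspan12 (1.64) are the highest, and Apcdd1 (-3.52) is the lowest.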

How the data were processed

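Each array took 50 ng of RNA through a kit with 2 amplification cycles, per the labels. The authors deposited 1 log2 value per array for each of 45101 probe sets. RMA and GCRMA are both listed, without a version, in the submitters' processing notes, and the choice between them is not given in the sources used here. Both methods normalize between arrays, and GCRMA draws dim signals towards a floor. Names came from the platform annotation in GEO, which can be old: 34945 had 1 gene, 932 several (not named), 9160 none listed, and 64 were controls. Entrez identifiers matched to RefSeq (GRCm38.p6) changed 0 symbols.

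Probe sets with a mean above the 40th percentile (2.71) were kept, with the brightest per gene, giving 12954 genes. Tumour and normal arrays were compared with limma 3.58.1 in R 4.3.3 (lmFit, eBayes, two-sided, Benjamini-Hochberg over all genes tested), and the fit was tested on simulated data. A fold change given as "at least" raises values at background to the limit of their array. The members, lists and tests were chosen with earlier results of these data known. Values are given for Wnt genes above background on at least 2 of 3 arrays of a group, and for up to 3 other pathway genes per direction with separated groups and the largest differences.
Alternatives were other filters, quantile normalization, median centring, trended robust variance, array weights, averaged probe sets, no cross-hybridizing probe sets, the replicate block, leaving out each array, and a common background limit.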

Additional observations from a re-analysis of the deposited data

How the results depend on the processing

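The result that no Wnt gene passed held in 12 of 16 alternative settings. It was 1 with a 60th percentile filter (Dkk2), 2 with array weights (Dkk2 and Wnt5a), 1 with values raised to a common background limit of 3.71, chosen after seeing the data (Wnt5a), and 0 to 1 with 1 array left out (Dkk2 without normal replicate 1). Over all genes, 28 passed, and 10 with no filter, 97 with the 60th percentile filter, 385 with array weights, 61 with the common limit and 4 (without tumour replicate 3) to 81 (without normal replicate 1) with 1 array left out. The causes were not tested, and leaving out arrays also lowers power. The array weights put most of the tumour mean on replicate 2. With the replicate number as a block, 46 genes and 0 Wnt genes passed. Whether the number pairs the arrays is not stated and could not be told from the values. Deviations of same-numbered arrays correlated at 0.193, 0.326 and -0.004. For replicates 1 and 2 the same-numbered array was the best match, whereas normal replicate 3 correlated best with tumour replicate 1 (0.135). Deviations within a group of 3 sum to 0, so these correlations are tied to each other. Of 237 values of the 15 named Wnt genes, 220 kept direction and side of the threshold, 5 passed and 12 changed sign. The sign changes were in Wnt5b, at -0.014 with median centring, -0.17 with array weights, -0.0049 with the common limit and -0.22 to 0.46 with 1 array left out, in Fzd8, at 0.013 with quantile normalization, 0.11 with array weights and -0.4 to 0.14 with 1 array left out, and, with 1 array left out, in Fzd1 (-0.82 to 0.33) and Dkk3 (-2.13 to 0.029). Groups that did not overlap numbered 7 to 9 of the 15 genes with 1 array left out, a step added after seeing the data. Groups apart on all arrays stay apart on fewer, so the count could not fall below 7. The 4 lower genes likewise had to remain, and no gene joined them in any case. In that step the shares of all genes above background were 16.3% to 19.2% higher and 16.6% to 22.3% lower. Signal over background limits what can be said of the 28 dim genes.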
